A study of Homo sapiens with 6 samples.

Results

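Transcripts of genes that switch off G protein-coupled receptor signalling were examined in the human adrenocortical carcinoma cell line NCI-H295A. The genes were given by name: the receptor kinases GRK5 and GRK6, the beta-arrestins ARRB1 and ARRB2, and the regulators of G protein signalling RGS2, RGS4, RGS10, RGS16 and RGS19. Of these 9 genes 8 have a probe set with a single gene symbol in the platform annotation, and no value is given for ARRB2. They stand for 20 of 22215 probe sets analysed. Near-confluent plates were kept for 18 h with 1 mM 8-Br-cAMP, a membrane-permeable cAMP analogue, or without it (3 arrays each); all plates had the same medium with low serum, insulin and selenium. RNA of each plate was hybridised to an Affymetrix oligonucleotide array, and the deposited values are signal intensities in arbitrary units. The design text speaks of plates and of separate experiments without tying arrays to them, so the p-values rest on a spread among 6 arrays that may be technical, and so few arrays limit the precision. In such whole-plate RNA, fewer cells of a type and less RNA per cell cannot be told apart. The study's title concerns phosphorylation of P450c17, the enzyme that makes precursors of adrenal androgens.

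As background, an activated receptor is phosphorylated by a G protein-coupled receptor kinase, and a beta-arrestin then binds the phosphorylated receptor, uncouples it from its G protein and leads it to clathrin-coated pits. RGS proteins act one step later, on the G protein itself: they speed GTP hydrolysis by the alpha subunit and so shorten its active state. The RGS proteins listed here act mainly on Gi or Gq family subunits. Receptors of adrenocortical cells include the ACTH receptor, which raises cAMP through Gs, and the angiotensin II receptor, which acts mainly through Gq. 8-Br-cAMP acts downstream of both receptor and adenylyl cyclase.

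Adrenocortical markers were present: all 6 measured adrenocortical markers (NR5A1, STAR, CYP11A1, CYP17A1, HSD3B2, INHA) had a mean signal above the filter level of 45.5, with summed signals of 14718 to 31895 after 8-Br-cAMP and 5600 to 19911 in controls. Of the other markers 1 of 5 adrenomedullary (CHGB), 2 of 5 fibroblast, 2 of 5 endothelial and 2 of 4 leukocyte genes were above that level, and none was listed at 0. The summed signal of the endothelial markers was 305 to 419 after 8-Br-cAMP and 183 to 231 in controls, whereas the sums of the adrenomedullary, fibroblast and leukocyte markers overlapped between the groups. In the fit with the sample number as a block, VWF passed among the endothelial markers and CYP11A1, CYP17A1 and INHA among the adrenocortical ones. The part of these markers in the results was not tested. The arrays numbered 1 stood apart. The 3'/5' ratio of the actin control probes, which rises as RNA is degraded, was 38.8 on 8-Br-cAMP 1 and 5.72 on control 1, against 1.93 to 2.41 on the other 4 arrays, so results are also given without both.

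Most of these probe sets gave weak signals. Probe sets were tested where their mean log2 signal over the 6 arrays exceeded the 40th percentile of all probe sets, a signal of 45.5. This left 7 of the 20 probe sets, from GRK5 (2), GRK6 (3), ARRB1 (1) and RGS2 (1), while RGS4, RGS10, RGS16 and RGS19 had no probe set above it. Only 3 probe sets were above this level on every array: 1 each of GRK5, GRK6 and RGS2. On 5 probe sets no array reached it. The geometric mean signal of the 20 probe sets ran from 1.40 to 235 with a median of 29.8, against a median of 76.2 over all probe sets. Signals of different probe sets are not levels on 1 scale, and a weak signal does not show that a transcript is absent.

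**Figure D1:**
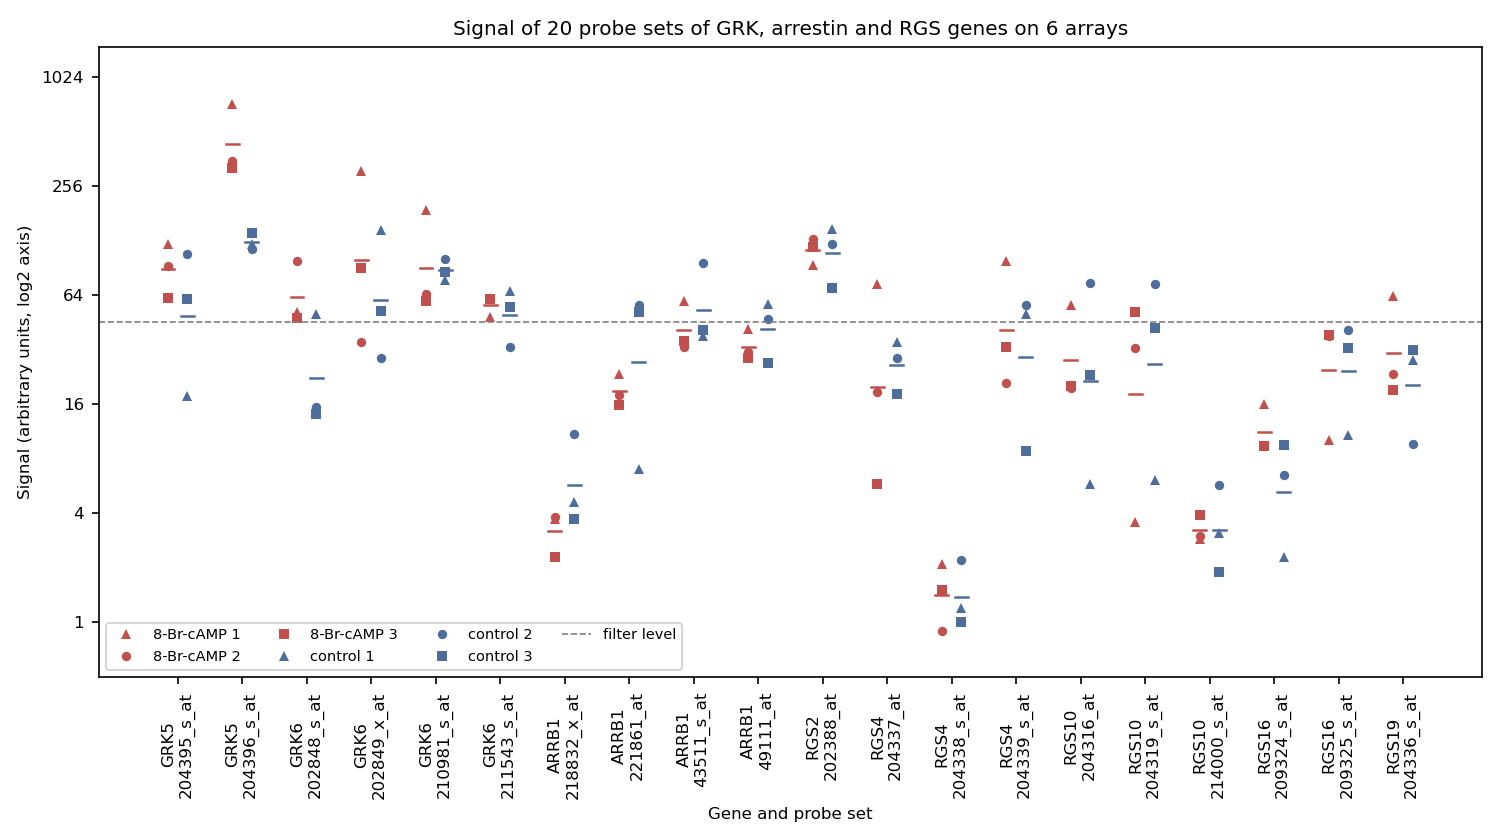
Signal of the 20 probe sets (log2 axis, arbitrary units) on each array, 8-Br-cAMP in red and control in blue, with short bars at the geometric mean of each group and the dashed line at the filter level of 45.5. On GRK5 204396_s_at the 3 treated arrays (324 to 728.9) lie above the 3 controls (115.5 to 141.9), while the groups overlap on the other 19 probe sets.

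GRK5, a kinase that phosphorylates agonist-occupied receptors, had more signal after 8-Br-cAMP on 1 of its 2 probe sets. The gene lies at chr10:119207571-119459745 (GRCh38.p14). On 204396_s_at the signal was 728.9, 354.1 and 324 on 8-Br-cAMP arrays 1 to 3, against 122.6, 115.5 and 141.9 on controls 1 to 3. Every treated array lay above every control, and 8-Br-cAMP 1 was the highest of all. The mean log2 signal was 8.77 ± 0.64 after 8-Br-cAMP and 6.98 ± 0.15 in controls (SD, n = 3 each), a difference of 1.79, or 3.47-fold. Limma without a block gave an SE of 0.36 and an adjusted p of 0.134, and 0% of the 13329 tested probe sets passed that fit. With the sample number as a block, called the paired fit here, limma gave an SE of 0.31, a 95% interval of 1.06 to 2.52 (2.09-fold to 5.75-fold) and an adjusted p of 0.0368. In the paired fit 3.21% of tested probe sets passed, 1.55% higher. GRK5 was the 1 of these 7 probe sets that rose there, and 0 of the 7 fell. The pairs differed by 2.57, 1.62 and 1.19 on the log2 scale (5.95-fold, 3.07-fold and 2.28-fold), the largest of them in pair 1, which holds the 2 arrays with raised actin ratios. Without those arrays the difference was 1.40 (2.65-fold), and limma gave an adjusted p of 0.000867 in a fit that called 30.8% of tested probe sets (12.1% higher). That fit sets 2 arrays against 2. Over the tested probe sets they correlated at 0.980 within 8-Br-cAMP and 0.961 within controls, so this p rests on a small spread that may be technical. A rise of 1.79 or more over all arrays was seen on 0.923% of tested probe sets, where GRK5 held place 123 of 13329.

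The second GRK5 probe set did not show the same pattern. On 204395_s_at the signal was 123.3, 92.2 and 61.4 on 8-Br-cAMP arrays 1 to 3 and 17.8, 107.3 and 61.3 on controls 1 to 3. Control 1 lay far below all treated arrays, control 3 was level with the lowest of them, and control 2 lay within their range. The difference of 0.86 did not pass the paired fit (95% interval -0.64 to 2.35, limma adjusted p = 0.479), and the pairs differed by 2.79, -0.22 and 0.00. In pair 1 both probe sets thus differed by more than 2.5 on the log2 scale, while in pairs 2 and 3 only 204396_s_at was higher. Without both number 1 arrays the difference on 204395_s_at was -0.11 (limma adjusted p = 0.844). Which GRK5 transcripts each probe set reads was not analysed here.

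**Figure D2:**
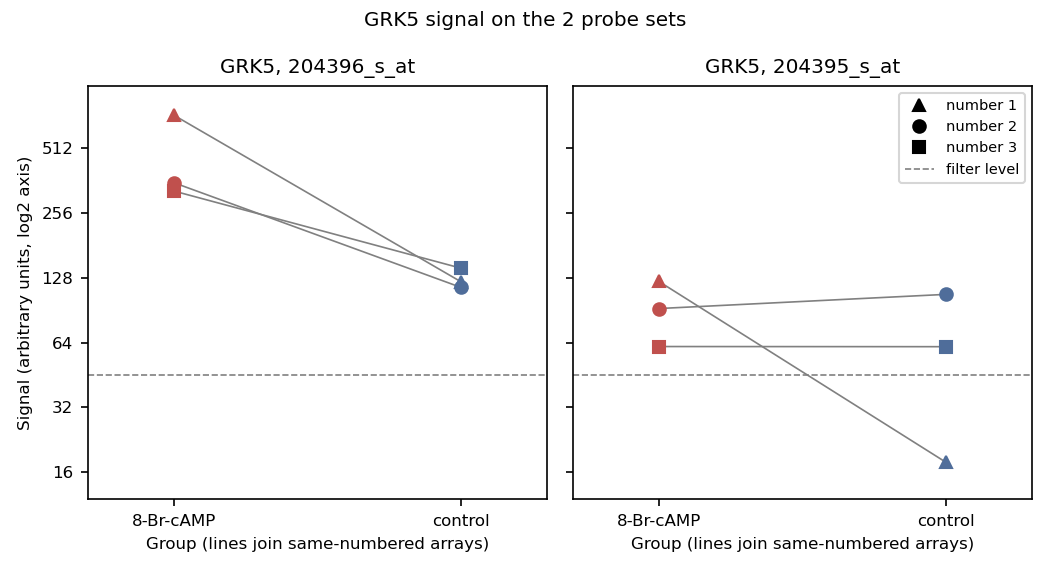
Signal of both GRK5 probe sets (log2 axis, arbitrary units), with 8-Br-cAMP left of control and lines joining arrays of the same number; the dashed line is the filter level. All 3 lines slope down to control on 204396_s_at, whereas on 204395_s_at only the line of number 1 does (123.3 against 17.8) and those of numbers 2 and 3 stay near level.

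GRK6, a relative of GRK5 in the same kinase subfamily, had 4 probe sets, of which none passed; 202849_x_at and 202848_s_at were higher in all 3 pairs, and the pairs differed in direction on 210981_s_at and 211543_s_at. GRK6 lies at chr5:177425523-177442891 (GRCh38.p14). On 210981_s_at, which stands for the gene where 1 probe set is used, the signal was 188.7, 65.2 and 59.7 on 8-Br-cAMP arrays 1 to 3 and 78, 101 and 85.5 on controls 1 to 3. The treated arrays 2 and 3 were below all controls, and treated array 1 was above them. The log2 difference was 0.04 (paired 95% interval -1.01 to 1.09, limma adjusted p = 0.971), with pairs at 1.27, -0.63 and -0.52. On 202849_x_at, whose suffix marks probes that may also bind other transcripts, the signal was 310.5, 35.5 and 90.3 after 8-Br-cAMP and 147, 28.8 and 52.4 in controls. Here the treated array was higher in all 3 pairs (1.08, 0.30 and 0.79), but both groups spread widely and overlapped (difference 0.72, paired limma adjusted p = 0.260). On 211543_s_at the treated signals of 48.7, 60.7 and 60.7 lay within the control range of 32.9 to 67.8 (difference 0.18, paired limma adjusted p = 0.848). The fourth, 202848_s_at, was under the filter, with 51.8, 98.8 and 47.9 after 8-Br-cAMP and 50.5, 15.5 and 14.2 in controls. On that probe set pair 1 differed by 0.04 and pairs 2 and 3 by 2.67 and 1.75, the reverse of the order in 210981_s_at. In the paired fit of all probe sets without a filter it had an unadjusted p of 0.0475 and a limma adjusted p of 0.315.

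ARRB1, a beta-arrestin, was lower on average after 8-Br-cAMP on all 4 of its probe sets, but within the spread between arrays. Of all 22215 probe sets 13520 were lower on average. ARRB1 lies at chr11:75260122-75351661 (GRCh38.p14). The 1 tested probe set, 43511_s_at, had 59.3, 33.3 and 35.6 on 8-Br-cAMP arrays 1 to 3 and 38.1, 96.2 and 41.2 on controls 1 to 3. The groups overlapped, and the highest value was that of control 2. Only 2 arrays, 8-Br-cAMP 1 and control 2, were above the filter level. The mean log2 signal was 5.37 after 8-Br-cAMP, under the filter level of 5.51, and 5.73 in controls. The log2 difference of -0.37 had a paired 95% interval of -1.63 to 0.90 (limma adjusted p = 0.734), with pairs at 0.64, -1.53 and -0.21. On 49111_at the signal was 41.4, 30.9 and 28.9 after 8-Br-cAMP and 57.2, 47.5 and 27 in controls, which again overlapped. On 221861_at it was 23.6, 17.9 and 15.9 after 8-Br-cAMP and 7, 56.3 and 51.7 in controls, so that control 1 was the lowest array and controls 2 and 3 the highest. The fourth, 218832_x_at, was at 2.3 to 3.8 after 8-Br-cAMP and 3.7 to 11 in controls. The differences on these 3 were -0.33, -0.53 and -0.84, each from signals below the filter level on average.

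RGS2, which acts mainly on Gq alpha subunits, was the 1 RGS gene above the filter and did not differ beyond the spread between arrays. RGS2 lies at chr1:192809039-192812275 (GRCh38.p14). Its 1 probe set, 202388_at, had 93.5, 130.9 and 118.7 on 8-Br-cAMP arrays 1 to 3 and 149.1, 123.2 and 69.9 on controls 1 to 3. The treated values lay within the control range. The mean log2 signal was 6.82 ± 0.25 after 8-Br-cAMP and 6.76 ± 0.57 in controls (SD, n = 3 each), and the difference of 0.06 had a paired 95% interval of -0.75 to 0.87, so changes between 0.593-fold and 1.83-fold lie within it (limma adjusted p = 0.943). The pairs differed by -0.67, 0.09 and 0.76. Without both number 1 arrays the difference was 0.43 (limma adjusted p = 0.318).

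**Figure D3:**
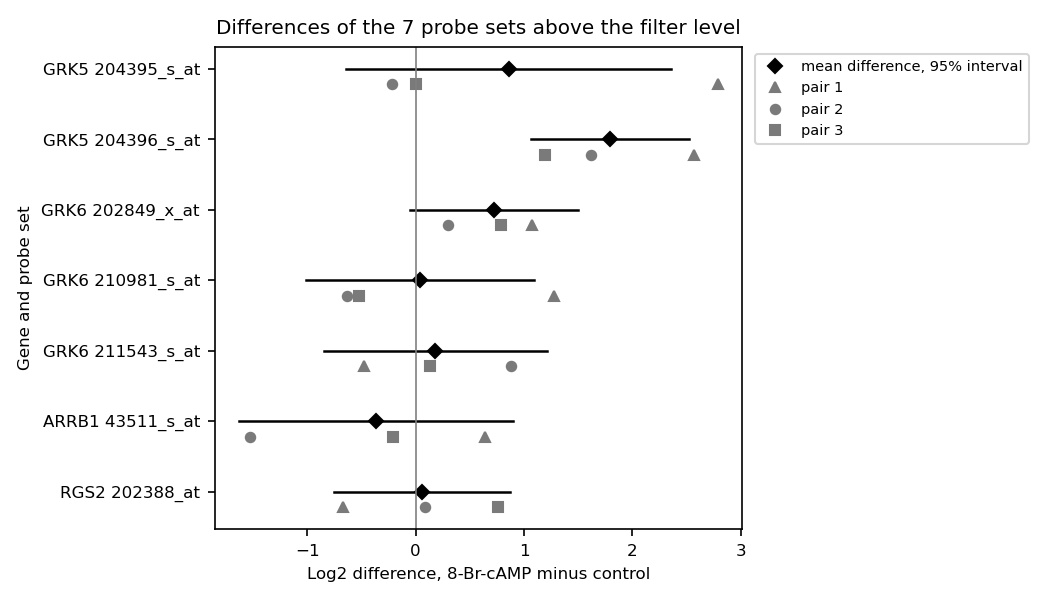
Log2 difference, 8-Br-cAMP minus control, of the 7 tested probe sets: diamonds and bars give the mean and the 95% interval of the paired fit, grey symbols the 3 same-numbered pairs. The interval lies above 0 on GRK5 204396_s_at (1.06 to 2.52) and includes 0 on the other 6.

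To set the GRK5 and RGS2 results beside their promoters, the 250 bases before each listed transcript start were searched. The searched motifs were the half-site of the cAMP response element, TGACG, on both strands, and the full palindrome, TGACGTCA. The sequences are RefSeq's for GRCh38.p14, and capitals mark a half-site, which reads CGTCA where it lies on the other strand. GRK5, at chr10:119207321-119207570 on the plus strand, holds none, and RGS2, at chr1:192808789-192809038 on the plus strand, holds 1, starting 181 bases before the start.
GRK5: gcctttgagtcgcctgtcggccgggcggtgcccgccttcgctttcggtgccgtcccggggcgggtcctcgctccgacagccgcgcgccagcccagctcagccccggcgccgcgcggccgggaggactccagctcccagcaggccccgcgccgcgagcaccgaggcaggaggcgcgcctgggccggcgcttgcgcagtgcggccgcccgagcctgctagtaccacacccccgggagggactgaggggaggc
RGS2: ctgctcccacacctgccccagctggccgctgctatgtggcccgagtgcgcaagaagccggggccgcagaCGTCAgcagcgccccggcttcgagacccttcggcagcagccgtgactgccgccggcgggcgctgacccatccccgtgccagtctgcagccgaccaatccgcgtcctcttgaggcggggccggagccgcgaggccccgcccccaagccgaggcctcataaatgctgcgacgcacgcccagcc
Windows were found for 8 of the 9 genes (13 windows, since some genes have several starts), and no entry for ARRB1. Not all lie before the gene. The only GRK6 window, chr5:177426426-177426675, lies within the gene span given above, and later windows of RGS4, RGS10 and RGS19 also lie within their genes. The half-site was in 5 of these windows, of the genes GRK6, ARRB2, RGS2 and RGS4 (the 2 RGS4 windows overlap and hold the same site), against 21.2% of all 35116 windows of the same length, and the full palindrome was in 0, against 1.65%. GRK5 passed the paired fit on 1 of its 2 probe sets and did not pass the fit without a block, and its 250-base window has no such letters. The window of RGS2, which passed neither fit, holds 1 half-site. A relation between these letters and the signals was not tested. This describes these windows and says nothing of binding, and sites elsewhere were not searched.

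The other 4 RGS genes, whose products act on Gi or Gq family subunits, were measured only by weak probe sets. RGS4 had 99.1, 21 and 33 after 8-Br-cAMP and 50.1, 56.4 and 8.8 in controls on 204339_s_at. RGS4 was at 74.1, 18.7 and 5.8 after 8-Br-cAMP and 35.2, 28.9 and 18.2 in controls on 204337_at, and at 0.9 to 2.1 after 8-Br-cAMP and 1 to 2.2 in controls on 204338_s_at. On the first 2 of these the highest signal was that of 8-Br-cAMP 1. RGS10 had 56.8, 19.6 and 20.1 after 8-Br-cAMP and 5.8, 74.5 and 23.1 in controls on 204316_at. On 204319_s_at RGS10 had 3.6, 32.6 and 51.5 after 8-Br-cAMP and 6.1, 73.4 and 42 in controls, so the number 1 array was the lowest of each group there. On 214000_s_at it was at 2.9 to 3.9 after 8-Br-cAMP and 1.9 to 5.7 in controls. RGS16 had 10.2, 38.1 and 38.7 after 8-Br-cAMP and 10.8, 41.2 and 32.8 in controls on 209325_s_at. There the number 1 arrays were again the lowest of both groups, and same-numbered arrays differed by at most 0.24 on the log2 scale. On 209324_s_at RGS16 was at 16, 9.4 and 9.4 after 8-Br-cAMP and 2.3, 6.5 and 9.5 in controls. RGS19 had 63.1, 23.4 and 19.2 after 8-Br-cAMP and 28, 9.6 and 31.9 in controls. The groups overlapped on all 9 of these probe sets. Over all 13 probe sets under the filter, differences ran from -0.84 to 1.49, and in the paired limma fit without a filter, which called 1.83% of 22215 probe sets, their adjusted p ran from 0.315 to 0.999.

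Of the 20 probe sets 1 (GRK5 204396_s_at) had no overlap between the groups, or 5%, against 15.1% of all probe sets (4.79% higher). Among the 7 tested it was 1 (14.3%), against 18.5% of all tested probe sets (6.02% higher). The treated array was higher in all 3 pairs on 3 probe sets and lower in all 3 on 1, against 12.6% and 24.3% of all probe sets. The median log2 difference was 0.05 over the 20 and -0.15 over all probe sets. Among the 7 tested, 6 were higher on average and 1 lower, against 39.0% higher over all tested probe sets. Of these 7, 2 are of GRK5 and 3 of GRK6, and the 6 include differences of only 0.04 and 0.06. The median of the 7 was 0.18, against -0.13 over all tested probe sets. The 6 tested probe sets other than GRK5 204396_s_at had paired limma adjusted p from 0.260 to 0.971, and from 0.167 to 0.844 without both number 1 arrays. The selection that the study's design text states, a change of at least 2-fold and an unadjusted p under 0.05, held 1 of the 7 (GRK5 204396_s_at, unadjusted p = 0.00925 in the methods' test, taken as an unmoderated test in limma) and 4.57% of all tested probe sets; with limma's moderated p it held the same 1 and 6.6%. The signal was highest on array 1 of the treated group on 13 of the 20 probe sets (65%), against 53.4% of all probe sets, and on array 1 of the controls on 6 (30%), against 35.8%. Median SDs between arrays were 0.59 after 8-Br-cAMP and 0.89 in controls for the 20, and 0.62 and 0.51 over all probe sets.

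The genes most like GRK5 over the 6 arrays were WDR13, KLHL21 and DNAJC3, by the root mean square difference of mean-centred log2 signals (0.27, 0.28 and 0.29, against a median of 1.11 over 7926 other genes). DNAJC3, a co-chaperone of the endoplasmic reticulum, had 975.8, 748 and 569.6 after 8-Br-cAMP and 267.1, 218.9 and 185.9 in controls. Like GRK5 on 204396_s_at, the probe set compared here, it was highest on 8-Br-cAMP 1 and had no overlap between groups. Such shared features come with a choice by likeness on these same arrays. ARRB1, the gene with the next smallest paired p on 1 probe set a gene, was most like WNT6, NTRK2 and AATF (0.10, 0.13 and 0.16, against a median of 0.65). These likenesses describe the same 6 arrays. GRK5 204396_s_at and the genes most like it were each highest on 8-Br-cAMP 1, and ARRB1 43511_s_at and the genes most like it on control 2.

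Of 103 other genes of receptor signalling and desensitisation, 52 were tested, and 0 rose and 2 fell in the paired fit (3.85%, against 3.68% of all 7927 genes, 1.73% higher and 1.96% lower). The 2 were TXNIP and VIPR1. Without the block 0 of the 52 passed. Without both number 1 arrays 2 rose and 9 fell (21.2%, against 33.3% of all genes, 12.8% higher and 20.5% lower). The median log2 difference of the 52 was -0.21, and -0.14 over all genes.

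Among receptors, VIPR1, which binds vasoactive intestinal peptide and couples to Gs, had 139.6, 66.1 and 69.2 after 8-Br-cAMP and 689.4, 214.3 and 304.3 in controls. All treated arrays lay below all controls, and within each group array 1 was the highest. The log2 difference was -2.05 (SE 0.24, paired limma adjusted p = 0.0144, and 0.195 without the block), with pairs at -2.30, -1.70 and -2.14. The other 2 tested receptor genes, MC2R and ADCYAP1R1, did not pass. MC2R, the ACTH receptor, had weak signals of 21.1, 54.7 and 45 after 8-Br-cAMP and 91.9, 46 and 47.9 in controls. Its difference was -0.65 (paired limma adjusted p = 0.555), with pairs at -2.12, 0.25 and -0.09. Of the receptor kinases 1 other was tested, GRK2, with 305.9, 270.7 and 272.4 after 8-Br-cAMP and 191.8, 295.1 and 287.2 in controls, which overlapped (difference 0.16, paired limma adjusted p = 0.760). GRK2 is the widely expressed kinase first found to act on the beta-adrenergic receptor.

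Among other arrestins, TXNIP, an alpha-arrestin known for binding thioredoxin and lowering glucose uptake, had 282, 409.3 and 416.6 after 8-Br-cAMP and 746.7, 1319.8 and 1348.2 in controls. The groups did not overlap, and the number 1 array was the lowest in both. The log2 difference was -1.60 (SE 0.19, paired limma adjusted p = 0.0151, and 0.144 without the block), with pairs at -1.40, -1.69 and -1.69. Of its 2 further tested probe sets, 201009_s_at fell by 1.17 (paired limma adjusted p = 0.0474) and 201008_s_at differed by -0.89 (0.126). Of 4 other tested RGS genes none passed, and RGS3, with the smallest p of them, differed by -0.29 (paired limma adjusted p = 0.611).

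None of the G protein subunits passed the paired fit (0 of 9 alpha and 0 of 10 beta and gamma), nor did 3 further G protein regulators and 20 endocytosis genes (against 3.68% of all genes that passed it). GNAZ, a Gi family alpha subunit that lowers cAMP, had 423.4, 233.8 and 205.8 after 8-Br-cAMP and 285.6, 148.3 and 145.7 in controls. It was higher in all 3 pairs by a like amount (0.57, 0.66 and 0.50), though the groups overlapped and array 1 was highest in each (paired limma adjusted p = 0.187). GNB2, a beta subunit, differed by -0.47 (paired limma adjusted p = 0.256). GPSM2, which binds inactive Gi alpha subunits, differed by -0.76 (paired limma adjusted p = 0.149). Its second tested probe set, 205240_at, had 103.9, 78.8 and 98.1 after 8-Br-cAMP and 176.5, 164.2 and 163.4 in controls. The groups did not overlap there, and the difference of -0.85 did not pass (paired limma adjusted p = 0.120). DNM3, a dynamin that pinches off endocytic vesicles, had 161.7, 181 and 147.4 after 8-Br-cAMP and 250.8, 536.9 and 452 in controls. The groups did not overlap, but the difference of -1.27 did not pass the paired fit (limma adjusted p = 0.0591). Without both number 1 arrays, in the fit that called 33.3% of all genes, the limma adjusted p was 0.0381 for GNAZ (difference 0.58), 0.0159 for GNB2 (-0.58), 0.0446 for GPSM2 (-0.52) and 0.000371 for DNM3 (-1.59). GNAI1, another Gi family alpha subunit, also passed that fit (difference 0.93, limma adjusted p = 0.00604), and is named after its values were seen. Over all 6 arrays GNAI1 differed by 0.50 (paired limma adjusted p = 0.431), with overlapping groups and pairs at -0.36, 1.23 and 0.64. The endocytosis genes AP2A2, AP2S1, DNM2 and NEDD4, named likewise, were lower and passed the fit without both number 1 arrays.

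**Figure D4:**
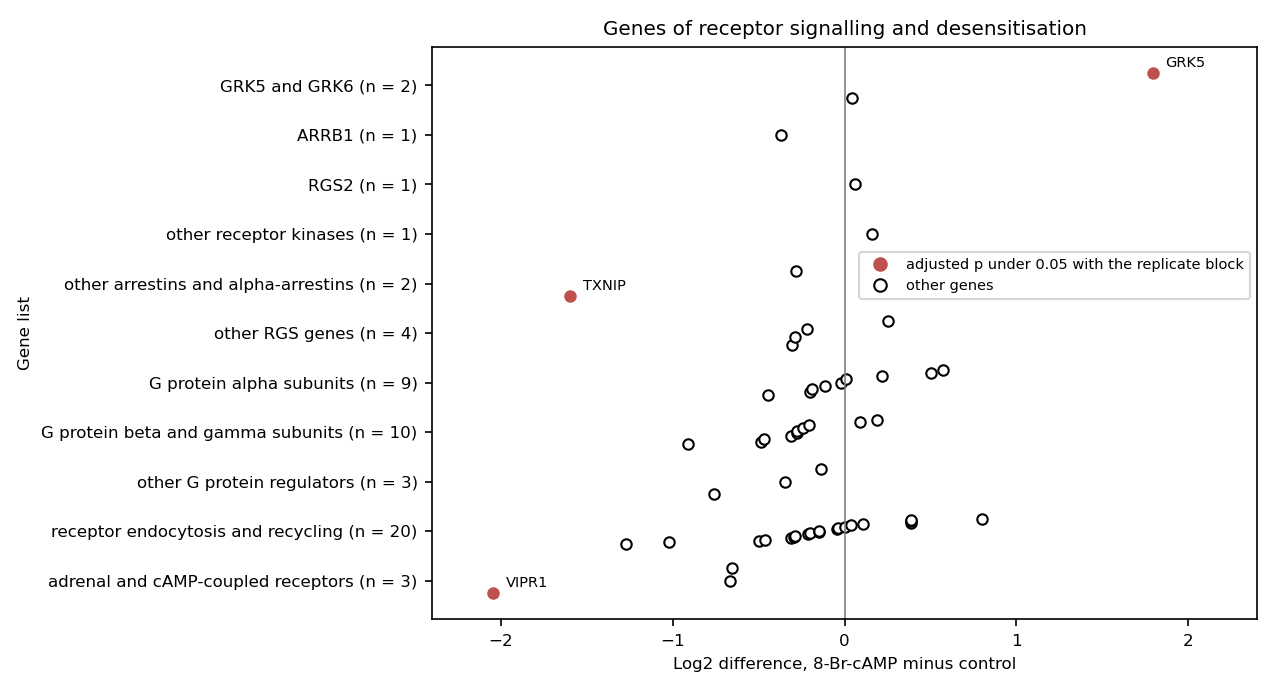
Log2 difference, 8-Br-cAMP minus control, of each tested gene, by role; every point is 1 gene on its probe set with the highest mean, and filled points passed the paired fit. GRK5 (1.79) lies right of 0 and TXNIP (-1.60) and VIPR1 (-2.05) left of it, while the remaining genes did not pass.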

How the data were processed

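The authors deposited 1 linear signal intensity for each probe set on each array, computed with GCOS 1.3 per the submitters' processing notes. The 2% trimmed means of the arrays were 249.996 to 250.155, so the arrays were taken as already scaled and not normalized further. A common scaling hides a shift shared by most transcripts. Of 22277 probe sets 62 array controls were left out, and 19064 of the rest have 1 gene symbol in GEO's platform annotation. Gene IDs of 19052 matched the RefSeq gene table, with 0 symbols changed.

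Log2 intensities were tested in R 4.3.3 by limma 3.58.1 (eBayes with an intensity trend), two-sided, with Benjamini-Hochberg adjustment over 13329 kept probe sets and a threshold of 0.05. The fit was run on simulated data, where only the bias of its differences was held to a limit. These data were given sample-number effects, so they cannot check the pairing. The main fit had no block. Arrays with the same number deviated together (correlations 0.603, 0.378 and 0.538, all over 0.1), and on that rule the numbers were treated as pairs. The labels do not state the pairing. Deviations were taken from the mean of each group, and array 1 stood apart in both groups. Arrays 2 and 3 then deviate together across groups, so meeting the rule does not show pairing. Arrays 2 and 3 are not told apart by this rule. 8-Br-cAMP 2 correlated at 0.547 with control 3, above its own number, and 8-Br-cAMP 3 at 0.312 with control 2. Both fits are given. Genes named outside the given 8 follow a rule: per list up to 3 that passed the paired fit, or else the 1 with the smallest p. The rule also names the 3 nearest patterns of the 2 genes with the smallest paired p. GNAI1, AP2A2, AP2S1, DNM2, NEDD4, MC2R and ADCYAP1R1 are named outside this rule, after their values were seen. The genes, lists and alternatives were chosen with earlier results of these data known. Gene lists were 8 with 103 genes. Alternatives covered scaling, filter, floor, pseudocount, variance model, the block, the unmoderated test and arrays left out.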

Additional observations from a re-analysis of the deposited data

How the results depend on the processing

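Tested probe sets had a median log2 difference of -0.13 as deposited. It was -0.03 under quantile normalization, 0.09 where array medians were set equal and -0.50 under spike-in scaling, so the signs of small differences depend on the scaling. GRK5 204396_s_at was higher in every alternative run (1.40 to 2.09). With the replicate block its call held in 8 of 10 further alternatives (adjusted p 0.0322 to 0.342) and was lost without an intensity trend (0.0773) and in the unmoderated test (0.342). Without the block it passed in 0 of 10 (0.102 to 0.258). Of the 6 fits that leave out 1 array, all without the block, GRK5 passed only without 8-Br-cAMP 1 (0.0406), against up to 0.564 for the others. With the block it passed in all 3 fits that leave out 1 pair (limma adjusted p 5.26e-05 to 0.00935). Those fits called 2.21% to 35.1% of tested probe sets. The count of these genes' tested probe sets that passed was 0 or 1 in every setting.

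Over all probe sets the main count of 0 became 428 with the replicate block. Without the block it was 17 under quantile normalization and with equal medians, 14 under spike-in scaling, 18 with a filter at the 60th percentile, and 28 with a floor or a pseudocount. With the block it was 339, 142, 1064, 440, 481 and 548 under those 6, and 406 with no filter, 81 without an intensity trend and 408 with robust variances. The unmoderated test called 1, and 0 with the block. Leaving out both number 1 arrays gave 4103. Leaving out 1 array, or 1 pair in the fit with the block, gave 0 to 4680, the highest without pair 1 (0 to 285 for single arrays, the highest without 8-Br-cAMP 1). Of the other 52 genes 2 passed with the block, 1 without an intensity trend, 3 under spike-in scaling and 2 under quantile normalization, no filter, the 60th percentile, floor, pseudocount and robust variances. Without both number 1 arrays 11 passed, and 0 to 15 with 1 array or pair left out, the highest without pair 1. The causes were not tested.

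TXNIP and VIPR1 lost their paired calls with equal medians (0.0516 and 0.0532) and in the unmoderated test (0.238 and 0.251), TXNIP also without an intensity trend (0.0543). DNM3 passed under spike-in scaling with the block (0.0303). The differences that turned sign had not passed a test. Spike-in scaling gave -0.33 for GRK6 210981_s_at, -0.31 for RGS2 and -0.21 for GRK2. Without both number 1 arrays GRK6 was -0.57 and GRK2 -0.10. With 1 array or pair left out GRK6 ran from -0.57 to 0.38, ARRB1 from -0.87 to 0.21, RGS2 from -0.29 to 0.43, GRK2 from -0.10 to 0.30 and RGS3 from -1.21 to 0.33.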
